A study of Mus musculus with 12 samples.

Results

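The genes described here code for the machinery that moves calcium in and out of the sarcoplasmic reticulum (SR), the calcium store of heart muscle cells. They are 9 genes chosen by symbol: Atp2a2, Pln, Hrc, Casq2, Ryr2, Trdn, Jph2, Cacna1c and Slc8a1. All 9 were in each of the 4 deposited tables, which together hold 18604 genes. RNA came from hearts of male C57Bl/6J mice aged 12 weeks, with 3 libraries in each of 4 groups, a design of diet by surgery. The groups were a BCAA-free diet with transverse aortic constriction (BCAA-free TAC), the BCAA-free diet with sham surgery (BCAA-free sham), a control diet with TAC (control diet TAC) and the control diet with sham surgery (control diet sham). The BCAA-free diet lacked the branched-chain amino acids leucine, isoleucine and valine, and the control diet held every essential amino acid. Each diet began 4 days before surgery and went on until the hearts were taken 1 week after it. TAC narrows the aorta and so raises the pressure against which the left ventricle pumps. No transgene or other allele is named for any group. Whether a group's replicates came from different animals is not stated. The p-values therefore reflect how far these libraries differ, which may be technical scatter.

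At each heartbeat the voltage-gated channel of the surface membrane lets in a little calcium, which opens the release channel of the SR, and the calcium that leaves the store starts contraction. Relaxation follows when an ATP-driven pump returns calcium to the store and an exchanger carries the rest out of the cell in return for sodium. The pump is held back by phospholamban, and proteins inside the store bind calcium and tune the release channel. Lower amounts of the pump are a known feature of overloaded and failing hearts.

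The stretches of 250 bases before the start site are shown for 4 of the genes, because their calls with TAC were unlike. Hrc was called lower on both diets, Pln on the control diet, Ryr2 on the BCAA-free diet, and Casq2 passed on neither. A call on 1 diet alone is not a difference between diets. Ryr2 was at -0.58 (log2, limma adjusted p = 0.0633) on the control diet and -0.37 (adjusted p = 0.0437) on the BCAA-free diet. For none of the 4 genes did limma call the difference of the TAC responses. The sequences are those of RefSeq on GRCm38.p6, written 5′ to 3′ on the strand of the gene, and 7 of the 9 genes matched an entry. Atp2a2 and Trdn are named only. Capitals mark every match on either strand to the GC box GGGCGG, the TATA box TATAAA, the GATA motif AGATAA, the M-CAT motif CATTCC, the MEF2 motif or the CArG box.
Pln (chr10:53337436-53337685, plus strand): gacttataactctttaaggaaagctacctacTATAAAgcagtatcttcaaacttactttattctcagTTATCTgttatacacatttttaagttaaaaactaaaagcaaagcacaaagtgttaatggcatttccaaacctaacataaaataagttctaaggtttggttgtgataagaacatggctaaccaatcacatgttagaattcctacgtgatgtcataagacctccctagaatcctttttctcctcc
Hrc (chr7:45335019-45335268, plus strand): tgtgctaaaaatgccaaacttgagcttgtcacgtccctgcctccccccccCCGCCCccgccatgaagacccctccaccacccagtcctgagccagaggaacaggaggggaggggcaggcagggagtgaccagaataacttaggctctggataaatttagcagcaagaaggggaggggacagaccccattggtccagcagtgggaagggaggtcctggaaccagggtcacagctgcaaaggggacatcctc
Casq2 (chr3:102086165-102086414, plus strand): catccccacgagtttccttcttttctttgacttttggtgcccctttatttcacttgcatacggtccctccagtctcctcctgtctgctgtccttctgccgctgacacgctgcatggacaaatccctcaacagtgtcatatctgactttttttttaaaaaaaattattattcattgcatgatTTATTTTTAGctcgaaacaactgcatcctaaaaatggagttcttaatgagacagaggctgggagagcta
Ryr2 (chr13:12106946-12107195, minus strand): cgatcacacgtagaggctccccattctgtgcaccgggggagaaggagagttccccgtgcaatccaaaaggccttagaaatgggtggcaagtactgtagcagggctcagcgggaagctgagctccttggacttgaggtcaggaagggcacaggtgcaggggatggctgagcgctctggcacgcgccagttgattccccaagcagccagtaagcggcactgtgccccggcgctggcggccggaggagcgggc

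In the Pln sequence the TATA box letters began 219 bases before the start and a GATA match 183 bases before it. The Hrc sequence held a GC box 200 bases before the start, and the Casq2 sequence a MEF2 match 69 bases before it. The Ryr2 window held none of the 6 motifs in capitals. Of all 32851 RefSeq windows of this length, 12.4% held the TATA box, 9.99% the GATA motif, 32.7% the GC box, 2.92% the MEF2 motif, 12.6% the M-CAT motif and 1.47% the CArG box. The E-box CANNTG, left in lower case, was in all 4 windows and in 66.2% of all windows. These matches describe letters, not binding.

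Libraries held between 74206246 and 110452636 reads, recovered from the deposited normalised reads. Levels below are normalised reads, that is reads divided by a size factor set over the 12 libraries. Nppa, the gene of atrial natriuretic peptide and a marker of cardiac load, had 55144 to 93674 normalised reads in BCAA-free TAC, 16033 to 24812 in BCAA-free sham, 121324 to 201910 in control diet TAC and 13715 to 36447 in control diet sham hearts. It rose with TAC on the BCAA-free diet by 1.88 (log2, adjusted p = 0.0285) and on the control diet by 2.84 (adjusted p = 0.00112; limma with Benjamini-Hochberg adjustment, used throughout unless another tool is named). Myh7, the slow myosin heavy chain, was at 0.99 with TAC on the BCAA-free diet (adjusted p = 0.207) and rose by 1.39 on the control diet (adjusted p = 0.034). The Nppa call on the BCAA-free diet was lost in 4 of 15 alternatives, each without 1 library (BCAA-free sham 2 or 3, or BCAA-free TAC 1 or 3), with adjusted p up to 0.11. The Myh7 call on the control diet was lost in 5 of 15 (scaling to cardiomyocyte markers, or without control diet sham 1, 2 or 3 or control diet TAC 1), with adjusted p up to 0.114. The Nppa call on the control diet held in all 15. All 11 cardiomyocyte markers, such as Tnnt2 and Myh6, had reads in every group. In whole-heart RNA, fewer cells of a type and less RNA per cell cannot be told apart.

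Control diet TAC 3 stood apart from the other libraries by gene length. There the 291 genes with over 16 kb of exons lay at a median of -0.24 (log2) from their group mean, and the 2208 genes under 2 kb at 0.14. In the other 2 control diet TAC libraries the longest genes lay at 0.07 and 0.16, and outside this group no class lay beyond 0.06 from its group mean. Ryr2 (28.8 kb of exons), Cacna1c (21.2 kb) and Slc8a1 (18.8 kb) are the longest of the 9 genes, and all 3 had their lowest level of the 12 libraries in control diet TAC 3. Mitochondrially coded genes took 21.9 to 22.5% of reads in BCAA-free TAC, 22.6 to 23.6% in BCAA-free sham, 17.9 to 19.9% in control diet TAC and 22.4 to 27.1% in control diet sham libraries. The structured RNAs Rn7sk, Rmrp and Rpph1, a sign of how RNA was selected, summed to 7.79 to 76.1 CPM in BCAA-free TAC, 3.02 to 3.9 in BCAA-free sham, 3.83 to 19.3 in control diet TAC and 2.06 to 115.5 in control diet sham libraries.

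**Figure D1:**
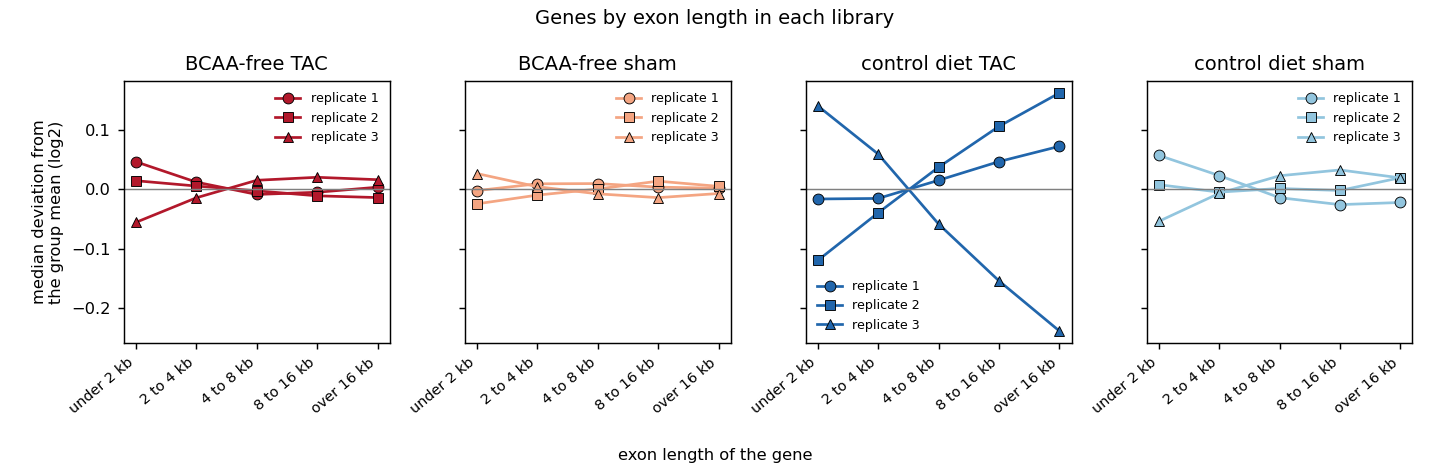
Median deviation of genes from their group mean (log2, vertical axis) by exon length class (horizontal axis), with 1 line per library and 1 panel per group. In control diet TAC 3 the median falls to -0.24 for genes over 16 kb, while the BCAA-free TAC, BCAA-free sham and control diet sham libraries lie near 0 in every class.

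Together the 9 genes made up 2.10 to 2.44% of all reads in BCAA-free TAC, 2.83 to 2.96% in BCAA-free sham, 1.70 to 1.82% in control diet TAC and 2.33 to 2.69% in control diet sham libraries. Per kb of exon, in control diet sham hearts, Atp2a2 (215299 ± 16673 normalised reads per kb, mean ± SD, n = 3) and Pln (184233 ± 9098) ranked 21 and 23 among 17670 genes. Hrc (38341 ± 1469) ranked 82, Casq2 (29524 ± 565) 119, Jph2 (12482 ± 1101) 272 and Ryr2 (5463 ± 535) 578. Trdn (3159 ± 256) ranked 956, Cacna1c (1099 ± 182) 2640 and Slc8a1 (675 ± 56.1) 3967. By this scale the pump and its inhibitor led the set, and the channel and exchanger of the surface membrane were its lowest members.

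**Figure D2:**
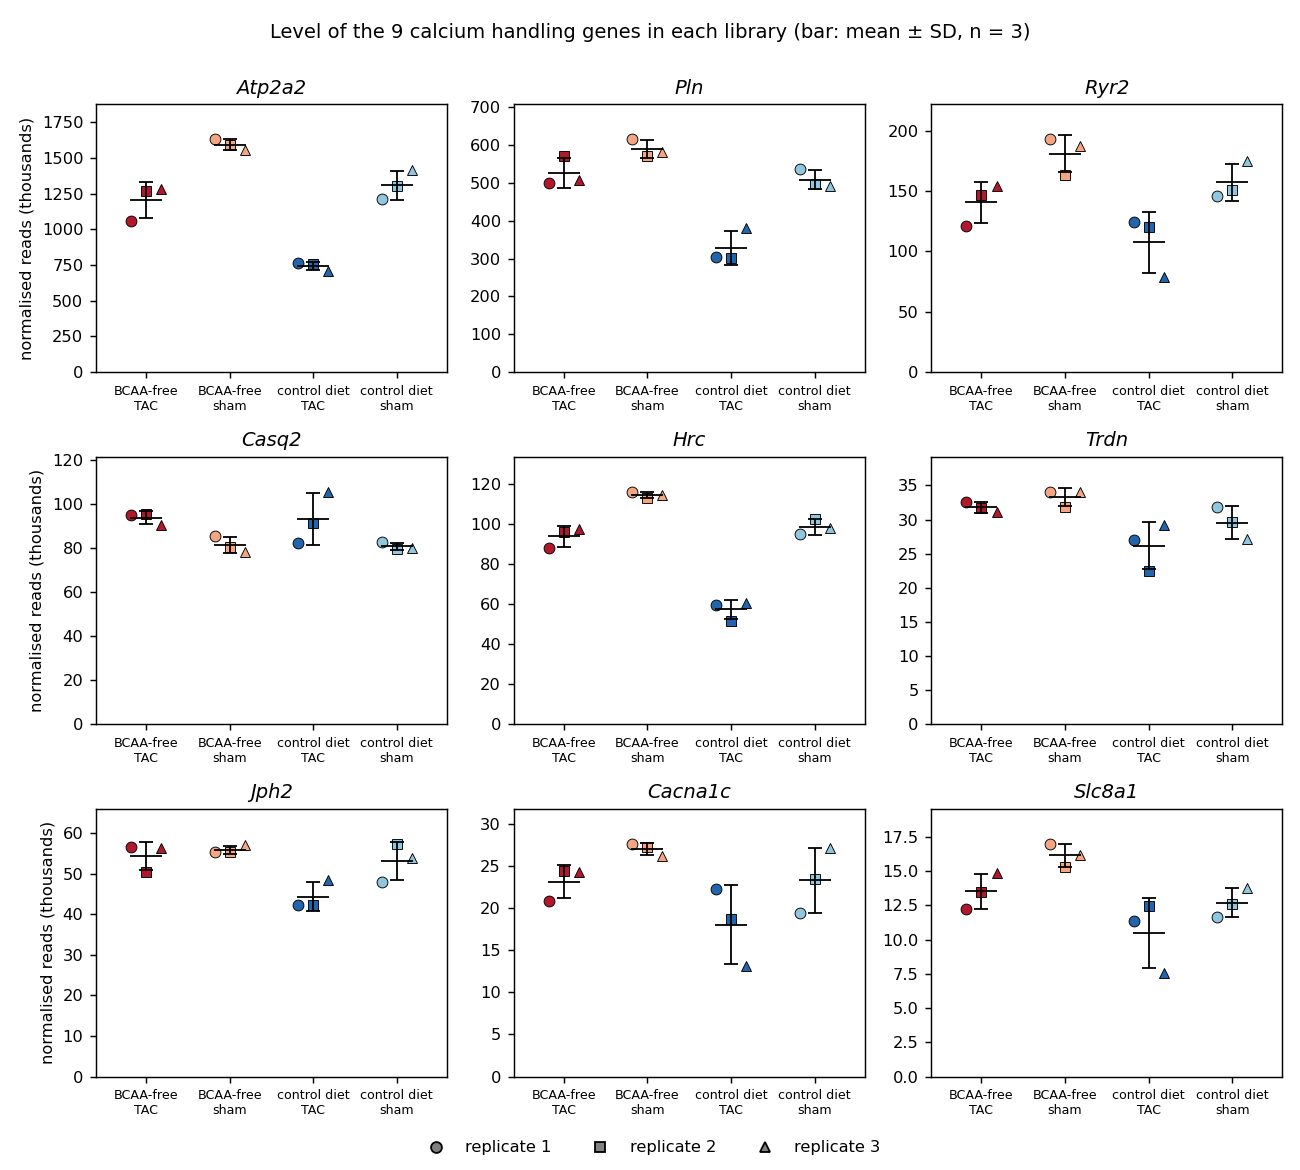
Normalised reads (vertical axis, scaled as labelled, from 0) of each of the 9 genes in the 12 libraries, by group (horizontal axis). Points are libraries, shaped by replicate number, and bars are mean ± SD (n = 3). Atp2a2, Pln and Hrc are lowest in all 3 control diet TAC libraries, and Casq2 shows no such drop.

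Atp2a2 codes for SERCA2, the pump that returns calcium to the SR (GRCm38 chromosome 5, 122453513 to 122502225, minus strand, protein coding). It had 1057449, 1266777 and 1284264 normalised reads in BCAA-free TAC hearts, 1629709, 1590545 and 1553609 in BCAA-free sham, 766881, 754169 and 709440 in control diet TAC, and 1210142, 1304780 and 1412775 in control diet sham hearts. The order of the means ran from BCAA-free sham through control diet sham and BCAA-free TAC to control diet TAC. Only control diet sham and BCAA-free TAC overlapped, so the lowest and the highest group stood clear of the rest.

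Pln codes for phospholamban, the small membrane protein that holds the pump back until it is phosphorylated (chromosome 10, 53337667 to 53345987, plus strand). It had 500120, 570463 and 507632 normalised reads in BCAA-free TAC, 614953, 571259 and 580441 in BCAA-free sham, 304379, 301515 and 380177 in control diet TAC and 537061, 497040 and 490799 in control diet sham hearts. Here BCAA-free TAC and control diet sham overlapped. Control diet TAC lay below every other group. Exons of Pln share 141 bases with Cep85l and 1644 with Gm47644, both on the opposite strand, and the strand setting of the counting is not given in the sources used here. Cep85l averaged 698.1 normalised reads, far below Pln.

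Hrc codes for the histidine-rich calcium binding protein of the SR lumen, which interacts with the pump and, through triadin, with the release channel (chromosome 7, 45335290 to 45338974, plus strand). It had 87818, 96090 and 97419 normalised reads in BCAA-free TAC, 116001, 112815 and 114164 in BCAA-free sham, 59503, 51756 and 60692 in control diet TAC and 94802, 102315 and 98031 in control diet sham hearts. As for the pump, control diet sham and BCAA-free TAC overlapped and no other neighbours in the order did. The spread within groups was small, at 1.40 to 8.47% of the mean (SD, n = 3).

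Casq2 codes for cardiac calsequestrin, the main calcium buffer of the SR lumen (chromosome 3, 102086415 to 102146514, plus strand). It had 95088, 95578 and 90318 normalised reads in BCAA-free TAC, 85526, 80471 and 78404 in BCAA-free sham, 82343, 91282 and 105574 in control diet TAC and 82553, 79742 and 80037 in control diet sham hearts. BCAA-free TAC averaged 93661 and control diet TAC 93066, both above the 2 sham means. The control diet TAC libraries overlapped every other group, and those of the 2 sham groups overlapped each other.

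Ryr2 codes for the ryanodine receptor, the release channel of the SR (chromosome 13, 11553102 to 12106945, minus strand). It had 121093, 146717 and 154178 normalised reads in BCAA-free TAC, 193005, 163431 and 187088 in BCAA-free sham, 124493, 120176 and 78634 in control diet TAC and 146273, 150661 and 174877 in control diet sham hearts. Each group overlapped its neighbour in the order of means. Trdn codes for triadin, which anchors calsequestrin at the release channel (chromosome 10, 33080554 to 33476709, plus strand). It ranged from 31046 to 32598 normalised reads in BCAA-free TAC, 31854 to 34097 in BCAA-free sham, 22404 to 29172 in control diet TAC and 27104 to 31888 in control diet sham hearts. Jph2 codes for junctophilin, the bridge between the T-tubule and the SR membrane (chromosome 2, 163336242 to 163397993, minus strand). It ranged from 50486 to 56636 in BCAA-free TAC, 55280 to 57040 in BCAA-free sham, 42156 to 48390 in control diet TAC and 48065 to 57319 in control diet sham hearts. For both junction genes control diet TAC had the lowest mean, and its range overlapped that of control diet sham.

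Cacna1c codes for the pore of the L-type calcium channel of the surface membrane (chromosome 6, 118587240 to 119196418, minus strand). It had 20825, 24325 and 24241 normalised reads in BCAA-free TAC, 27592, 27249 and 26165 in BCAA-free sham, 22292, 18740 and 13064 in control diet TAC and 19380, 23384 and 27110 in control diet sham hearts. Slc8a1 codes for the sodium-calcium exchanger (chromosome 17, 81373105 to 81738377, minus strand). It had 12265, 13466 and 14854 normalised reads in BCAA-free TAC, 16992, 15310 and 16198 in BCAA-free sham, 11367, 12490 and 7574 in control diet TAC and 11685, 12591 and 13790 in control diet sham hearts. BCAA-free sham was the highest group for both genes, and it did not overlap any other group for Slc8a1. The other 3 groups overlapped one another.

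With TAC on the BCAA-free diet, 4 of the 9 genes fell: the pump Atp2a2, the release channel Ryr2, the luminal protein Hrc and the exchanger Slc8a1. Atp2a2 was at a log2 change of -0.41 ± 0.07 (SE, adjusted p = 0.00673), so it fell by 25%. Ryr2 was at -0.37 ± 0.10 (adjusted p = 0.0437), Hrc at -0.29 ± 0.06 (adjusted p = 0.0105) and Slc8a1 at -0.27 ± 0.07 (adjusted p = 0.0432). No member rose. Of all 17611 genes tested, 4.41% fell by the same threshold and 3.31% rose. Pln was at -0.17 (adjusted p = 0.133), Cacna1c at -0.23 (0.0528), Trdn at -0.07 (0.452) and Jph2 at -0.05 (0.701). Casq2 had a positive estimate of 0.20 (adjusted p = 0.0504) and its TAC libraries all lay above its sham libraries. In 6 of the 9 genes every BCAA-free TAC library lay below every BCAA-free sham library, against 14.7% of all genes, and in 1 (Casq2) the groups stood apart the other way, against 13.4%. The median over the 9 genes was -0.23, and over all genes 0.01.

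In the same hearts 6 of 11 cardiomyocyte markers rose, and their reads summed to 89080 to 91065 CPM in BCAA-free TAC, against 80351 to 85186 CPM in BCAA-free sham libraries. Of 9 fibroblast markers 4 rose and 1 fell (median 0.69), with sums of 823 to 948 CPM in BCAA-free TAC libraries, against 670 to 731 CPM in BCAA-free sham libraries. Of 9 macrophage markers 2 rose (189.5 to 252 CPM in BCAA-free TAC, 172 to 196 CPM in BCAA-free sham), and of 6 smooth muscle markers 3 rose (median 0.42; 309 to 374 CPM in BCAA-free TAC, 274 to 303 CPM in BCAA-free sham). None of these markers was at 0, and the part of these other cell types in the result was not tested. When libraries were scaled to the cardiomyocyte markers, the median of all genes shifted to -0.24 and 8 of the 9 genes were called lower, all but Casq2 (-0.05). By this scaling 7009 of all 17618 genes were called lower. Genes over 16 kb had a median of -0.14 with TAC on this diet. With the trend on length removed, a correction chosen after seeing the data, Ryr2 was at -0.20 (adjusted p = 0.282) and Slc8a1 at -0.13 (adjusted p = 0.315). Atp2a2 kept its call in all 15 alternatives (highest adjusted p = 0.0341). With a replicate block Hrc (adjusted p = 0.059), Ryr2 and Slc8a1 lost their calls. Hrc also lost its call without BCAA-free sham 3 (adjusted p = 0.0519). Ryr2 lost it without BCAA-free sham 1 (0.128), sham 3 (0.134), TAC 1 (0.0562) or TAC 2 (0.0695), and Slc8a1 without BCAA-free sham 1 (0.145), sham 2 (0.0607), sham 3 (0.126), TAC 1 (0.106) or TAC 2 (0.085). Without BCAA-free TAC 2, Pln (-0.23, adjusted p = 0.0449) and Cacna1c (-0.27, adjusted p = 0.0421) passed, where 635 of all 17540 genes fell. In the authors' deposited table Casq2 (0.20, adjusted p = 0.0188) and Cacna1c (-0.23, adjusted p = 0.024) also passed 0.05, beside the 4 genes named.

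With TAC on the control diet, the pump and both of the proteins that act on it were much lower: Atp2a2, Pln and Hrc fell, and nothing in the set rose. Atp2a2 was at a log2 change of -0.82 ± 0.13 (SE, adjusted p = 0.00426), so it fell by 43.5%. Hrc was at -0.79 ± 0.12 (adjusted p = 0.00326) and Pln at -0.65 ± 0.14 (adjusted p = 0.0162). These are 3 of 9 genes, where 5.64% of 18305 genes fell and 9.17% rose. Ryr2 was at -0.58 ± 0.18 and its groups did not overlap, but it did not pass (adjusted p = 0.0633). With it, 4 of the 9 genes were lower in every control diet TAC library than in every control diet sham library, against 16.3% of all genes. Cacna1c was at -0.40 (adjusted p = 0.212), Slc8a1 at -0.31 (0.266), Jph2 at -0.27 (0.166), Trdn at -0.19 (0.378) and Casq2 at 0.19 (0.361). The median of the set was -0.40, against -0.02 over all genes.

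In this comparison 7 of 9 fibroblast markers rose, summing to 1684 to 2593 CPM in control diet TAC and 746 to 901 CPM in control diet sham libraries, and 5 of 9 macrophage markers rose, at 352 to 419 CPM in control diet TAC and 176 to 227 CPM in control diet sham libraries, with none of these markers at 0. Of 6 smooth muscle markers 2 rose, at 348 to 568 CPM in control diet TAC and 332.5 to 409 CPM in control diet sham libraries. Of 7 atrial markers limma called 0, and 2 were lower and 0 higher at an unadjusted p under 0.05, with a median of 0.44 over the list. The atrial markers summed to 195.7 to 466.3 CPM in control diet TAC and 77.4 to 305 CPM in control diet sham libraries. The part of these cell types in the result was not tested. Cardiomyocyte markers summed to 72193 to 80707 CPM in control diet TAC and 74779 to 80953 CPM in control diet sham libraries, and 0 of 11 were called by limma (3 had an unadjusted p under 0.05, edgeR called 0 and DESeq2 1). With libraries scaled to these markers the same number of the 9 genes, 3, was called lower, where 298 of all 18311 genes were. Atp2a2 (highest adjusted p = 0.031) and Hrc (0.0229) kept their calls in all 15 alternatives. Pln lost its call without control diet sham 1 (adjusted p = 0.0733), sham 2 (0.0669), sham 3 (0.0616) or TAC 1 (0.0721), and with a replicate block. Genes over 16 kb had a median of -0.21 with TAC on the control diet. Without control diet TAC 3, the library low in long genes, Ryr2 (-0.37, adjusted p = 0.0237) and Jph2 (-0.34, adjusted p = 0.0235) passed as well, Cacna1c was at -0.19 and Slc8a1 at -0.10. In that fit 2200 of all 18247 genes fell, against 1032 of 18305 in the main analysis. In the authors' deposited table Ryr2 passed too (-0.56, adjusted p = 0.0142).

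**Figure D3:**
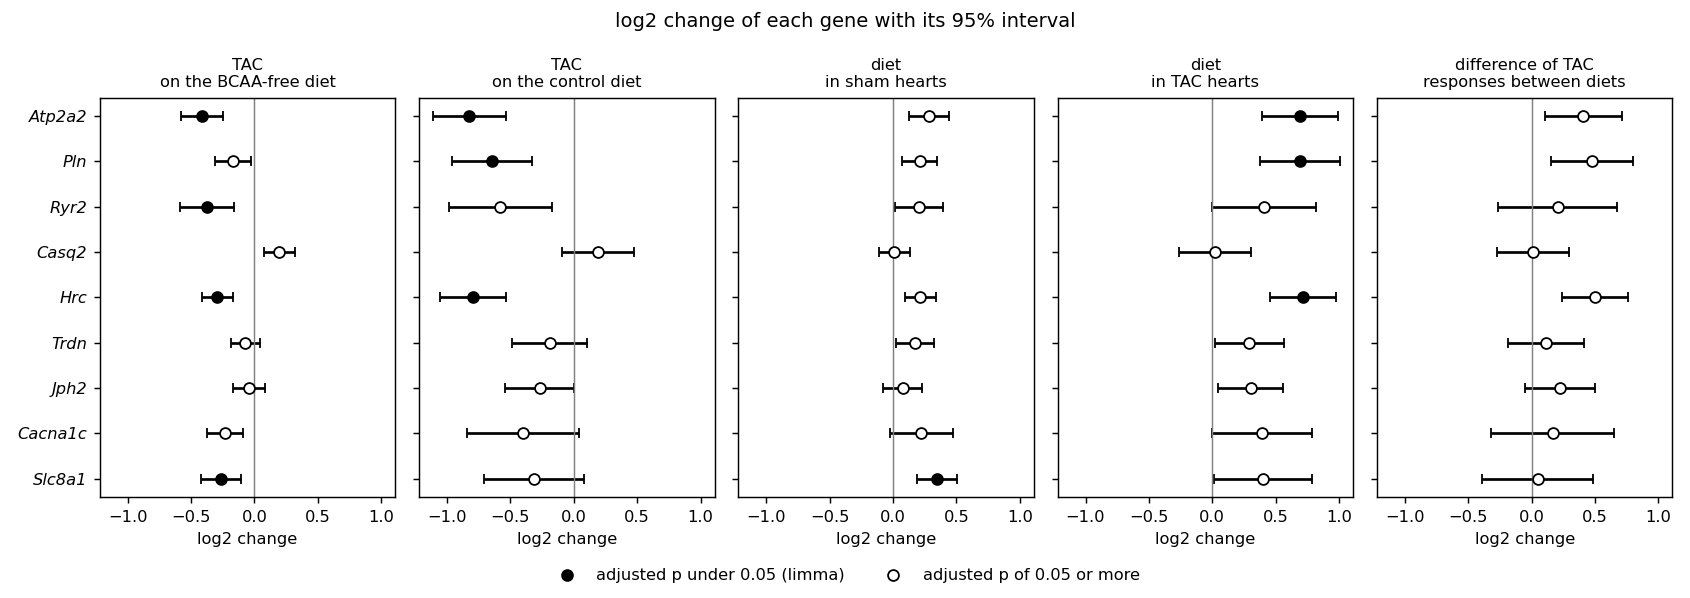
Log2 change (horizontal axis) of each gene (rows) with its 95% interval from limma, 1 panel per comparison. Filled points passed an adjusted p of 0.05. Atp2a2 and Hrc are filled on both diets for TAC, Atp2a2, Pln and Hrc are filled for diet in TAC hearts, and Casq2 is open in every panel.

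In sham hearts a single member rose on the BCAA-free diet, the exchanger Slc8a1. It was at a log2 change of 0.35 ± 0.07 (SE, adjusted p = 0.0287), or 27.3% more, where 1.27% of 17862 genes rose and 2.27% fell. Every other estimate was above 0 too: Atp2a2 at 0.28 (adjusted p = 0.0573), Hrc at 0.21 (0.0605), Pln at 0.21 (0.0914), Trdn at 0.17 (0.183), Cacna1c at 0.22 (0.295), Ryr2 at 0.20 (0.219), Jph2 at 0.08 (0.6) and Casq2 at 0.01 (0.953). In 5 of the 9 genes (Atp2a2, Pln, Hrc, Slc8a1 and, on the scale of that pair's own table, Trdn) every BCAA-free sham library lay above every control diet sham library, against 13.2% of all genes. The median of the set was 0.21, and over all genes 0.00.

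The call for Slc8a1 was lost without BCAA-free sham 1 (adjusted p = 0.141), sham 2 (0.06) or sham 3 (0.108), and with libraries scaled to cardiomyocyte markers (0.31, adjusted p = 0.0537). It was also lost with a replicate block. Atp2a2 passed without control diet sham 3 (0.34, adjusted p = 0.0476) and Pln without control diet sham 1 (0.25, adjusted p = 0.0449). Over all genes 74 of 17793 rose in the first of these fits and 172 of 17779 in the other. In the authors' deposited table Atp2a2 (adjusted p = 0.00448), Hrc (0.00928) and Pln (0.0229) passed beside Slc8a1 (0.000939), with log2 fold changes of 0.28, 0.21, 0.21 and 0.35 in that order. Of the 11 cardiomyocyte markers limma called 0 higher and 1 lower. Of 9 fibroblast markers 2 fell (6 with a lower estimate at an unadjusted p under 0.05, median -0.34), at sums of 670 to 731 CPM in BCAA-free sham and 746 to 901 CPM in control diet sham libraries. Of 9 macrophage markers 1 fell (5 unadjusted, median -0.33; 172 to 196 CPM in BCAA-free sham, 176 to 227 CPM in control diet sham). Of 7 endothelial markers 1 fell (5 unadjusted, median -0.26; 597 to 655 CPM in BCAA-free sham, 698 to 877 CPM in control diet sham), and of 6 smooth muscle markers 1 fell (274 to 303 CPM in BCAA-free sham, 332.5 to 409 CPM in control diet sham). Of 7 atrial markers limma called 0. None of these markers was at 0, and their part in the result was not tested.

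In TAC hearts the BCAA-free diet went with higher levels of the pump and both of its partners. Hrc was at a log2 difference of 0.72 ± 0.12 (SE, adjusted p = 0.00366), Atp2a2 at 0.69 ± 0.13 (adjusted p = 0.00793) and Pln at 0.69 ± 0.14 (adjusted p = 0.0103), which are 64.4%, 61.8% and 61.3% more. These 3 of 9 genes rose, where 6.23% of 18039 genes did, and none fell, where 10.5% did. Jph2 was at 0.30 (adjusted p = 0.0991), Trdn at 0.29 (0.134), Ryr2 at 0.41 (0.158), Slc8a1 at 0.40 (0.144), Cacna1c at 0.39 (0.16) and Casq2 at 0.02 (0.928). In 5 genes, the 3 called ones with Trdn and Jph2, every BCAA-free TAC library lay above every control diet TAC library, against 17.0% of all genes. The median of the set was 0.40, against 0.02 over all genes. Genes over 16 kb had a median of 0.10 between these groups. Without control diet TAC 3 the estimates of the 3 longest genes, which were not called, were 0.20 for Ryr2, 0.185 for Cacna1c and 0.19 for Slc8a1.

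Marker genes of heart muscle cells and of other cell types also differed between these groups. Of 11 cardiomyocyte markers 6 rose, with a median of 0.48. Their sums were 89080 to 91065 CPM in BCAA-free TAC libraries and 72193 to 80707 CPM in those of control diet TAC. Of 9 macrophage markers 8 fell, summing to 189.5 to 252 CPM in BCAA-free TAC libraries, against 352 to 419 CPM in control diet TAC libraries. Of 9 fibroblast markers 6 fell, summing to 823 to 948 CPM in BCAA-free TAC libraries, against 1684 to 2593 CPM in control diet TAC libraries, and of 6 smooth muscle markers 1 fell. Of 6 measured atrial markers 1 rose. None of these markers was at 0, and their part in the result was not tested beyond the scaling that follows. With libraries scaled to the cardiomyocyte markers, which shifted the median of all genes to -0.38, Hrc (0.31) and Pln (0.28) were still called higher, Atp2a2 was at 0.29 (adjusted p = 0.105) and Casq2 was called lower (-0.38, adjusted p = 0.0116). Of all 18062 genes, 167 were called higher and 6582 lower by this scaling. Hrc kept its call in all 15 alternatives. Atp2a2 lost it without BCAA-free TAC 2 (adjusted p = 0.0673) or TAC 3 (0.0543), and Pln without BCAA-free TAC 2 (0.0769) or control diet TAC 1 (0.0522). Without control diet TAC 3, Jph2 (0.37, adjusted p = 0.00416) and Trdn (0.38, adjusted p = 0.00616) passed. In that fit 2906 of all 17992 genes rose, against 1124 of 18039 in the main analysis. In the authors' deposited table Jph2 passed as well (0.30, adjusted p = 0.0451).

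The effect of diet on the TAC response was tested as the change on the BCAA-free diet minus that on the control diet, over all 12 libraries. No member passed in limma, where 0.675% of 17493 genes did. The estimates nearest to the threshold were those of Hrc (0.50 ± 0.12, 95% interval 0.24 to 0.76, adjusted p = 0.0748), Pln (0.48 ± 0.15, 0.15 to 0.80, adjusted p = 0.151) and Atp2a2 (0.41 ± 0.14, 0.11 to 0.71, adjusted p = 0.185). These 3 had an unadjusted p under 0.05. By edgeR 0 of the 9 passed, and by DESeq2 3 did: Hrc (adjusted p = 0.00128), Pln (0.0289) and Atp2a2 (0.0349). DESeq2 called 824 of all 17493 genes. Without control diet TAC 3, Pln (0.59, adjusted p = 0.00485) and Hrc (0.55, adjusted p = 0.00598) passed in limma, where 1755 of all 17491 genes did. Casq2 was at 0.01 and Slc8a1 at 0.05, with 95% intervals of -0.28 to 0.29 and -0.39 to 0.49. The 4 pairwise comparisons share libraries (both with control diet TAC, for example, use the same 3), so their results for a gene are not separate evidence.

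Ratios of reads within a library do not depend on any size factor. The ratio of Pln to Atp2a2, inhibitor to pump, was 0.473, 0.450 and 0.395 in BCAA-free TAC, 0.377, 0.359 and 0.374 in BCAA-free sham, 0.397, 0.400 and 0.536 in control diet TAC and 0.444, 0.381 and 0.347 in control diet sham hearts. It was higher in every TAC library on the BCAA-free diet, by 0.24 in log2 (exact two-sided permutation test, p = 0.1, the smallest that 3 against 3 can give), and overlapped on the control diet (0.18, exact p = 0.4). Between diets it overlapped in TAC hearts (-0.0048, exact p = 0.9) and in sham hearts (-0.07, exact p = 0.7).

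The ratio of Slc8a1 to Atp2a2 sets the exchanger against the pump. It was 0.0116, 0.0106 and 0.0116 in BCAA-free TAC, 0.0104, 0.00963 and 0.0104 in BCAA-free sham, 0.0148, 0.0166 and 0.0107 in control diet TAC and 0.00966, 0.00965 and 0.00976 in control diet sham hearts. All TAC libraries lay above their sham libraries, by 0.15 in log2 on the BCAA-free diet and 0.51 on the control diet (exact permutation test, p = 0.1 for each). The ratio of Casq2 to Ryr2, buffer to release channel, was 0.785, 0.651 and 0.586 in BCAA-free TAC, 0.443, 0.492 and 0.419 in BCAA-free sham, 0.661, 0.760 and 1.34 in control diet TAC and 0.564, 0.529 and 0.458 in control diet sham hearts. It too was above sham in every TAC library, by 0.57 in log2 on the BCAA-free diet and 0.77 on the control diet (exact permutation test, p = 0.1 for each). With 4 pairs of groups and 3 ratios, 12 such tests were run, and none can pass 0.05. Adjusted over the 12 (Benjamini-Hochberg), the smallest permutation p was 0.24. Without control diet TAC 3 the control diet value for Casq2 to Ryr2 was 0.46, and that for Slc8a1 to Atp2a2 0.69. A ratio is still open to shifts by gene length, and Casq2 has 2.74 kb of exons where Ryr2 has 28.8 kb. With TAC, genes of 2 to 4 kb had a median of 0.04 on the BCAA-free diet and 0.05 on the control diet. Genes over 16 kb lay at -0.14 and -0.21. The part of length in the ratios was not tested.

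**Figure D4:**
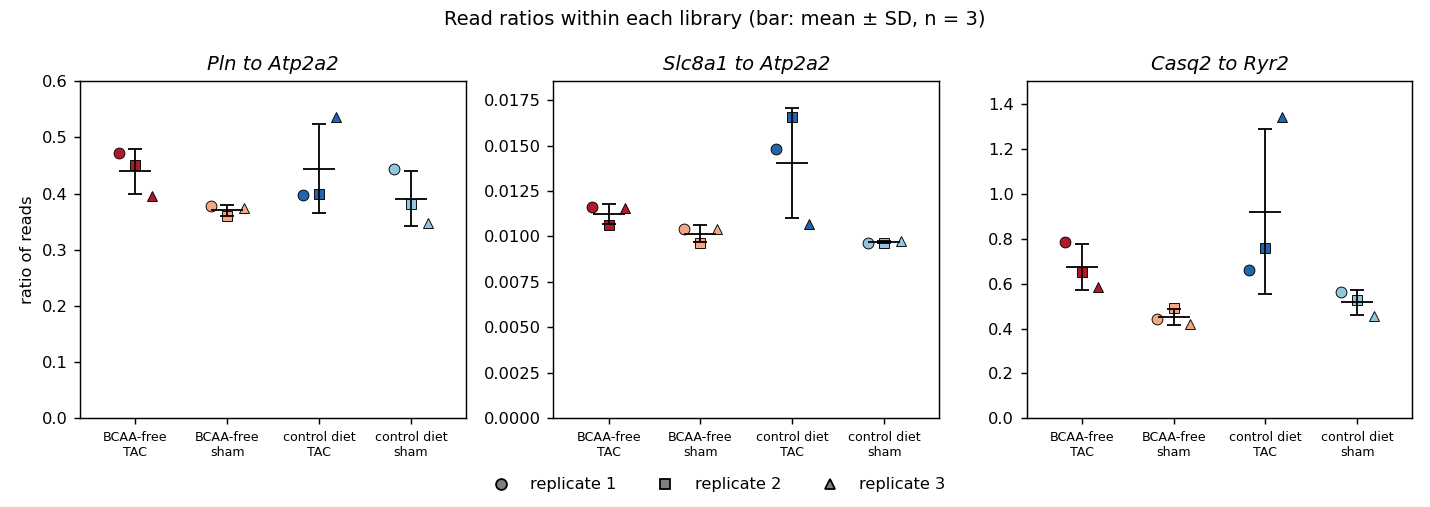
Ratio of reads (vertical axis, from 0) of Pln to Atp2a2, Slc8a1 to Atp2a2 and Casq2 to Ryr2 in each library, by group (horizontal axis). Points are libraries and bars mean ± SD (n = 3). The 3 TAC libraries lie above the 3 sham libraries on both diets for Slc8a1 to Atp2a2 and Casq2 to Ryr2, and on the BCAA-free diet alone for Pln to Atp2a2.

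The wider calcium pathway was read in 4 lists of other genes. Of 27 further genes of the SR membrane and lumen, 4 rose and 3 fell with TAC on the BCAA-free diet (median 0.04), and 6 rose and 2 fell with TAC on the control diet (median -0.01). Of 27 of the surface membrane and T-tubule, 2 rose and 1 fell on the BCAA-free diet, and 3 rose and 1 fell on the control diet. Of 26 measured kinases, phosphatases and anchors, 1 rose and 3 fell on the BCAA-free diet (median -0.09), and 1 rose and 4 fell on the control diet (median -0.23). Of 8 genes of mitochondrial calcium uptake, limma called 0 on the BCAA-free diet (1 had an unadjusted p under 0.05, edgeR called 0 and DESeq2 1), and 1 rose on the control diet. The shares of all genes to read these against were 3.31% rising and 4.41% falling on the BCAA-free diet, and 9.17% rising and 5.64% falling on the control diet.

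One gene of the first list, Strit1, codes for DWORF, a micropeptide that raises the activity of the pump by displacing phospholamban. It is listed under the name Gm34302 and was matched through the RefSeq synonyms. It had 905.4, 1245 and 948.7 normalised reads in BCAA-free TAC, 735.1, 980.9 and 1441 in BCAA-free sham, 382.8, 228.2 and 337.5 in control diet TAC and 890.2, 766.6 and 544.4 in control diet sham hearts. All 3 control diet TAC libraries lay below all 9 others. It fell with TAC on the control diet by 1.23 in log2 (adjusted p = 0.00979) and rose with the BCAA-free diet in TAC hearts by 1.73 (adjusted p = 0.000861), and both calls held in all 15 alternatives. With TAC on the BCAA-free diet it was at 0.01 (adjusted p = 0.992), with the diet in sham hearts at 0.49 (0.441), and the difference of the TAC responses was 1.23 (adjusted p = 0.129; 0.0206 by DESeq2).

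Casq1, the calsequestrin best known from skeletal muscle, rose with TAC on both diets. It had 1113, 877.8 and 1026 normalised reads in BCAA-free TAC and 629.7, 736.1 and 723.8 in BCAA-free sham hearts, a rise of 0.52 (adjusted p = 0.0114). On the control diet it had 1322, 1166 and 1465 in TAC and 800.9, 788 and 768.2 in sham hearts, a rise of 0.73 (adjusted p = 0.00468). Sypl2, a protein of the junction between T-tubule and SR in skeletal muscle, rose by 1.37 on the BCAA-free diet (adjusted p = 0.0206) and by 1.78 on the control diet (adjusted p = 0.00117), from few reads (71.5 to 84.9 in BCAA-free TAC, 17.6 to 42.6 in BCAA-free sham, 127.8 to 148.1 in control diet TAC and 36.8 to 45.9 in control diet sham hearts). Jsrp1, which binds calsequestrin in skeletal muscle, rose on the BCAA-free diet by 0.98 (adjusted p = 0.0426) and on the control diet by 1.49 (adjusted p = 0.00682). Ryr1, the skeletal release channel, was at 0.31 on the BCAA-free diet (adjusted p = 0.668) and -0.63 on the control diet (0.207). Atp2a1, the skeletal pump, was at -0.04 on the BCAA-free diet (adjusted p = 0.963) and -0.48 on the control diet (0.253). Both were added after their values were seen. Jph1, the junctophilin also found in skeletal muscle, fell with TAC on the BCAA-free diet by 0.21 (adjusted p = 0.0483) and on the control diet by 0.48 (adjusted p = 0.0316). Markers of skeletal muscle tissue summed to 3.67 to 4.10 CPM in BCAA-free TAC, 3.26 to 4.06 in BCAA-free sham, 4.67 to 11.2 in control diet TAC and 2.62 to 3.46 in control diet sham libraries, with Myh1, Myh2 and Myh4 not in the tables. With TAC on the control diet 1 of the 5 measured markers was called, Tnnt3 (2.76, adjusted p = 0.00314). The others, Mylpf (-0.37), Pvalb (-0.51), Tnni2 (0.07) and Actn3 (0.26), were not called.

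On the BCAA-free diet Itpr1, the inositol trisphosphate receptor, fell by 0.26 (adjusted p = 0.0206), and Calr, the chaperone calreticulin, by 0.23 (adjusted p = 0.0429), while Srl, the luminal calcium binder sarcalumenin, rose by 0.23 (adjusted p = 0.0462). None of them was called on the control diet, where Itpr1 was at -0.45 (adjusted p = 0.151), Calr at 0.07 (0.686) and Srl at 0.13 (0.49). At the surface membrane Cacnb3, an auxiliary subunit of the calcium channel, rose on both diets, by 0.60 on the BCAA-free diet (adjusted p = 0.0352) and 0.99 on the control diet (adjusted p = 0.0416). Cav3, the muscle caveolin, rose by 0.31 (adjusted p = 0.0149) and Atp2b1, a calcium pump of the surface membrane, fell by 0.22 (adjusted p = 0.0263) on the BCAA-free diet. Neither was called on the control diet (Cav3 at 0.24, adjusted p = 0.284, and Atp2b1 at -0.12, adjusted p = 0.417). On the control diet Bin1, which shapes T-tubule membrane, rose by 0.65 (adjusted p = 0.00858) and Cacnb1 by 0.54 (adjusted p = 0.0425), and Cacna2d1, another channel subunit, fell by 0.35 (adjusted p = 0.0464). Bin1 (0.24, adjusted p = 0.12), Cacnb1 (0.26, adjusted p = 0.165) and Cacna2d1 (-0.13, adjusted p = 0.203) were not called on the BCAA-free diet.

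Among the enzymes, Pde3a, a phosphodiesterase that breaks down cyclic AMP, fell by 0.46 with TAC on the BCAA-free diet (adjusted p = 0.000699) and by 0.49 on the control diet (adjusted p = 0.00986). The small heat shock protein gene Hspb6 rose by 0.74 on the BCAA-free diet (adjusted p = 0.00166) and by 0.65 on the control diet (adjusted p = 0.0242). Pde4d, another cyclic AMP phosphodiesterase, fell by 0.39 on the BCAA-free diet (adjusted p = 0.00505) and by 0.56 on the control diet (adjusted p = 0.0324). Akap6, an anchor of protein kinase A, fell by 0.21 on the BCAA-free diet (adjusted p = 0.036) and was at -0.25 on the control diet (adjusted p = 0.157). Camk2b and Camk2a, subunits of the calcium/calmodulin-dependent kinase, fell on the control diet by 0.66 (adjusted p = 0.00526) and 0.58 (adjusted p = 0.0152). The subunits Camk2d (-0.13, adjusted p = 0.444) and Camk2g (-0.25, adjusted p = 0.0866) were not called. Normalised reads over these libraries averaged 15170 for Camk2d, 4935 for Camk2g, 4203 for Camk2a and 974.5 for Camk2b on the control diet. Mcub, the subunit that restrains the mitochondrial calcium uniporter, rose there by 0.81 (adjusted p = 0.0152). Mcub (0.55, adjusted p = 0.0624), Camk2b (-0.06, adjusted p = 0.762) and Camk2a (-0.17, adjusted p = 0.138) were not called on the BCAA-free diet.

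**Figure D5:**
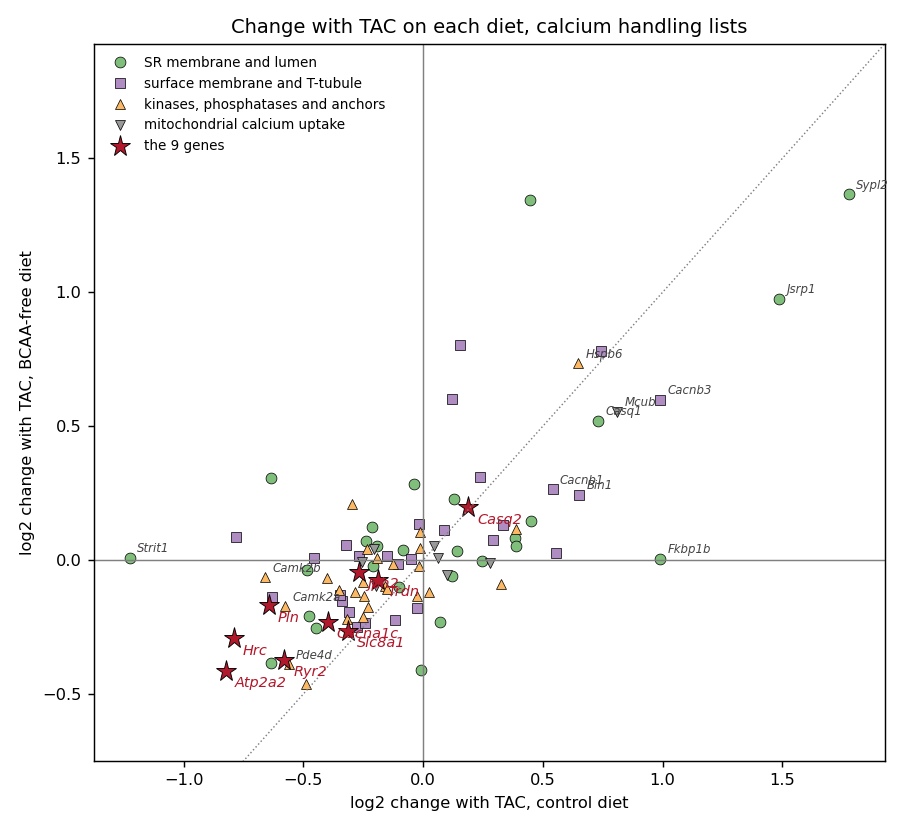
Log2 change with TAC on the BCAA-free diet (vertical axis) against that on the control diet (horizontal axis) for the 9 genes (stars) and the genes of the 4 calcium lists (shapes), in libraries that the 2 axes do not share. The dotted line marks equal changes. Names are given to the 9 genes and to called genes beyond 0.5 on either axis. Atp2a2, Pln and Hrc lie above the dotted line, at less negative values on the BCAA-free diet, and Strit1 lies at -1.23 on the control diet and 0.01 on the BCAA-free diet.

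With the diet in sham hearts, limma called 0 of 27 genes of the SR list (6 had an unadjusted p under 0.05, edgeR called 0 and DESeq2 4), where 1.27% of all genes rose and 2.27% fell. Bin1 (by 0.40, adjusted p = 0.0284) and Cacnb3 (by 0.59, adjusted p = 0.0475) fell, and Ppp1r3a, a subunit that targets protein phosphatase 1 to glycogen and the SR, rose by 0.43 (adjusted p = 0.0476). In TAC hearts the BCAA-free diet went with 3 higher and 6 lower of the 27 SR genes, against 6.23% higher and 10.5% lower of all genes. Beside Strit1, the higher ones were Tmem38a, the counter-ion channel of the SR (0.41, adjusted p = 0.0284), and Jph1 (0.44, adjusted p = 0.0267). Among the lower ones were Selenon, a selenoprotein of the SR (-0.58, adjusted p = 0.0157), Sypl2 (-0.81, adjusted p = 0.0191) and Fkbp1a, a binding partner of ryanodine receptors (-0.50, adjusted p = 0.021).

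In the same comparison Bin1 fell by 0.80 (adjusted p = 0.00294), Gem, a small GTPase that restrains calcium channels, by 0.85 (adjusted p = 0.0168) and Cacnb3 by 0.98 (adjusted p = 0.0388), while Cacnb2 rose by 0.40 (adjusted p = 0.0402). Of the kinases, phosphatases and anchors 4 of 26 rose and 0 fell. They included Camk2a (by 0.52, adjusted p = 0.0154), Akap7, an anchor that binds phospholamban (by 0.45, adjusted p = 0.0212), and Ppp1r3a (by 0.48, adjusted p = 0.0264). Mcub fell by 0.67 (adjusted p = 0.0179). For the difference of the TAC responses no gene of the 4 lists was called by limma (in the order of the lists above 6, 3, 3 and 2 had an unadjusted p under 0.05), edgeR called 0 and DESeq2 3. With libraries scaled to cardiomyocyte markers Tmem38a (0.0082), Jph1 (0.04), Cacnb2 (-0.0044), Camk2a (0.12), Akap7 (0.05) and Ppp1r3a (0.08) lay between -0.0044 and 0.12 in TAC hearts and were not called. The list calls that held in all 15 alternatives were those of Sypl2, Casq1, Jsrp1, Strit1 and Bin1 with TAC on the control diet, Hspb6, Pde3a and Pde4d with TAC on the BCAA-free diet, and Strit1 and Bin1 for diet in TAC hearts. Every other call of a list gene named above was lost in at least 1 alternative.

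To place the 9 patterns, each gene was compared with the other genes among 12832 by the root mean square difference of log2 levels over the 12 libraries, both centred on their own mean. The genes most like Atp2a2 were Dsg2 (0.08), Txlnb (0.09) and Ppm1l (0.09), where Atp2a2 itself varied by 0.41 around its mean. Most like Pln were Apbb1 (0.06), Mut (0.06) and Dnajc28 (0.06), against 0.34 for Pln itself. Most like Hrc were Bckdha (0.06), Pink1 (0.07) and Acad12 (0.07), against 0.38 for Hrc itself. Bckdha, a subunit of the enzyme that commits branched-chain amino acids to breakdown, lay at 0.09 in BCAA-free TAC, 0.42 in BCAA-free sham, -0.68 in control diet TAC and 0.17 in control diet sham hearts (log2 from its own mean). Most like Casq2 were Dnpep (0.04), Dctn2 (0.05) and Mlip (0.05), against 0.13 for Casq2 itself, whose libraries differed least. The nearest to the others were Eif4ebp2 for Ryr2 (0.08), Gpatch8 for Cacna1c (0.09), Drosha for Slc8a1 (0.08), Cd59a for Trdn (0.05) and Klc2 for Jph2 (0.05). The points share the same 12 libraries, so this is a description.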

How the data were processed

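RNA of 12 mouse heart libraries was measured, 3 in each of 4 groups. Trimmomatic 0.36, STAR 2.5.2b and Subread 1.5.2 are named in the submitters' processing notes, as is DESeq2, and so are GRCm38 and mm10. What each tool did, which annotation was counted and whether strand was used is not given in the sources used here. Per the labels, poly(A) RNA was selected. The authors deposited a table for every pair of groups that differ in a single factor. Each holds a signal, the normalised read count of every library, as deposited by the authors. The log2 fold change and the p-value of each gene are the authors' own, per the file headers. Every value (100%) was a whole multiple of 1 read within 0.0001 read after dividing by a step per library, so reads could be recovered (74206246 to 110452636 per library). Genes in a table summed to at least 61 reads.

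The design allowed for raw counts (edgeR) or normalised values (limma). Because the deposited unit was normalised, limma-trend (limma 3.58.1, R 4.3.3) with robust empirical Bayes was fitted to log2(value + 1) for genes averaging 10 or more, and p-values were adjusted over all of them (Benjamini-Hochberg, threshold 0.05). Each pair of groups was fitted alone in its own table. Fold changes are on the log2(value + 1) scale, which understates low genes. The difference of TAC responses was fitted over 12 libraries. Levels use size factors set jointly, so their ratios can depart slightly from the fold changes. The fits were tested on simulated data. Alternatives were a pseudocount of 10, no filter, TMM, joint size factors, scaling to 11 cardiomyocyte markers, edgeR 4.0.16, DESeq2 1.42.0, a replicate block, leaving out each library and, chosen after seeing the data, removal of a trend on exon length.

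The 9 genes and all lists were chosen with earlier results of these data known. The genes named are the 9, up to 3 called genes per list, direction and comparison with the smallest p (mean at least 50), the genes most like each of the 9, and Nppa and Myh7. Ryr1, Atp2a1, Camk2d, Camk2g and the single markers of skeletal muscle were added after their values were seen. So were the values of list genes on the diet where TAC gave no call. Positions and exon lengths come from an annotation of GRCm38, where 99.7% of the gene IDs were found. Spegnb was not matched and is not analysed here.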

Additional observations from a re-analysis of the deposited data

How the results depend on the processing

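Across the alternatives, the number of the 9 genes called in TAC against sham on the control diet was 2 to 5 when each library was left out in turn, and it was 1 to 4 on the BCAA-free diet, 0 to 2 for diet in sham hearts, 1 to 5 for diet in TAC hearts and 0 to 2 for the difference of TAC responses. Scaling to cardiomyocyte markers gave 8 called for TAC on the BCAA-free diet, 0 for diet in sham hearts and 1 for the difference. DESeq2 gave 4 for diet in sham hearts and 3 for the difference, where it called 1522 of 17862 and 824 of 17493 genes. Removing the length trend, chosen after seeing the data, gave 2 for TAC on the BCAA-free diet, 3 for diet in sham hearts and 1 for the difference. Over all genes it gave 1016, 742 and 184 in that order. Whether the replicate numbers of the labels pair the libraries is not known. In their deviations from the group means, same-numbered libraries correlated at -0.32 to 0.04 and 0 of 12 matched best with their own number. This shows no sign of pairing but cannot exclude it, since effects of single libraries can hide it. With a replicate block 2 of the 9 genes were called for TAC on the control diet, 1 for TAC on the BCAA-free diet and 0 for diet in sham hearts. Over all genes 1873 were called with the block for TAC on the control diet, where 2710 were called without it. For TAC on the BCAA-free diet, diet in sham hearts and the difference 623, 276 and 50 were called with it, where 1360, 633 and 118 were called without it. Scaling to cardiomyocyte markers reversed Casq2 (-0.054), Srl (-0.022) and Strit1 (-0.24) for TAC on the BCAA-free diet and Casq2 for diet in sham hearts (-0.034). For diet in TAC hearts it reversed Casq2 (-0.38), Cacna1c (-0.010), Slc8a1 (-0.0034), Trdn (-0.11), Jph2 (-0.10) and Cacnb2 (-0.0044). For the difference it reversed Ryr2 (-0.15), Casq2 (-0.35), Cacna1c (-0.19), Slc8a1 (-0.31), Trdn (-0.24) and Jph2 (-0.13). The Casq2 difference was also below 0 with TMM (-0.0068), edgeR (-0.014) and DESeq2 (-0.0040), and Strit1 with TAC on the BCAA-free diet with edgeR (-0.026), DESeq2 (-0.032) and the length trend removed (-0.039). The cause of these reversals was not tested, but this scaling moved the median of all genes to -0.24, -0.04, -0.38 and -0.34 in those 4 comparisons. It called 252 genes higher and 7009 lower for TAC on the BCAA-free diet (583 and 777 in the main analysis), 167 and 6582 for diet in TAC hearts (1124 and 1901), 23 and 3026 for the difference (30 and 88), 1342 and 298 for TAC on the control diet (1678 and 1032) and 109 and 389 for diet in sham hearts (227 and 406). With each library left out in turn, Jph2 with TAC on the BCAA-free diet ranged from -0.072 to 0.0068, Strit1 from -0.22 to 0.26 and Atp2a1 from -0.30 to 0.25, and Casq2 from -0.026 to 0.035 for diet in sham hearts and from -0.065 to 0.12 for diet in TAC hearts. The difference ranged from -0.0011 to 0.32 for Ryr2, -0.079 to 0.11 for Casq2, -0.042 to 0.34 for Cacna1c and -0.16 to 0.19 for Slc8a1. Over all alternatives, genes called numbered 1354 to 4678 for TAC on the control diet (2710 in the main analysis), 546 to 7261 for TAC on the BCAA-free diet, 50 to 1522 for diet in sham hearts, 1195 to 6749 for diet in TAC hearts (3025) and 16 to 3049 for the difference. Of the alternative values of single genes, 1290 kept direction and side of the threshold, 225 lost the call, 31 gained one and 43 reversed. All 84 alternative values of the read ratios moved by less than the spread between libraries. With 3 libraries per group, neither leaving out 1 library nor a replicate block could have moved them further. This count was therefore fixed in advance and says nothing about how stable the ratios are. The 9 genes had at least 7574 normalised reads in every library, and no test of how depth limits the calls was run.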
